A study of Mus musculus with 6 samples.

Results

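The genes described here were 5 members of the lymphocyte antigen 6 family (*Ly6a*, *Ly6c1*, *Ly6c2*, *Ly6e* and *Ly6i*) and 4 genes used as markers of monocytes and macrophages (*Plac8*, *Vcan*, *Adgre1* and *Nr4a1*). They were chosen by gene symbol, and all 9 were found among the 55335 gene identifiers of the expression table. The table held RNA-seq values of bone marrow-derived macrophages (BMDMs), which are macrophages grown from mouse marrow for 7 days with 25 ng/ml macrophage colony-stimulating factor. The BMDMs carried the WT genotype and were kept for 24 h with neutrophils taken by magnetic sorting from spinal cord injury lesions at 3 days post-injury (dpi), and the Ly6G- cells were then recovered by flow sorting. The neutrophils came from *Cd177* WT mice for 3 libraries and from *Cd177* KO mice for 3 libraries, and the BMDMs of both groups were otherwise treated alike according to the labels. No library of BMDMs without neutrophils was analysed here, so every value compares one co-culture with the other. The KO mice were *Cd177*-/- animals, and nothing in the labels says whether the 3 libraries of a group came from separate cultures or animals, so the p-values measure only the spread between these samples, which may be technical.

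Proteins of the Ly6 family are small and mostly held on the cell surface by a lipid anchor, and several of them serve as sorting markers. Ly6C, encoded by *Ly6c1* and *Ly6c2*, divides mouse blood monocytes into an inflammatory Ly6C-high and a patrolling Ly6C-low population, and its level falls as monocytes mature into macrophages, while F4/80, encoded by *Adgre1*, rises. *Nr4a1* encodes an orphan nuclear receptor that Ly6C-low monocytes need and that is also an immediate early gene, induced within minutes to hours of many stimuli.

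Of the 9 genes, *Ly6i*, *Ly6a*, *Ly6e*, *Nr4a1* and *Plac8* were lower and *Ly6c2*, *Ly6c1* and *Adgre1* were higher in BMDMs labelled as kept with KO neutrophils, while *Vcan* did not pass the test. The 8 called genes had an adjusted p-value (limma on log2(FPKM + 0.5), Benjamini-Hochberg over 13367 genes) under 0.05, where 37.6% of all tested genes were called, 27.1% higher and 10.5% lower. The values of the libraries labelled WT and KO did not overlap in 8 of the 9 genes, against 51.9% of all tested genes. The median log2 fold change of the 9 genes was -0.61 and that of all tested genes was 0.19, so each fold change below is to be read against this general shift. FPKM are fragment counts scaled for transcript length and library size, and the added 0.5 understates the change of low genes. The libraries were also rescaled by median-of-ratios, which brought the median of all genes to -0.01. Then 6 of the 9 genes were called, 5 lower and 1 higher (*Ly6c2*). Of all 13367 tested genes, 4316 were called under this scaling, 2057 higher and 2259 lower. Without KO replicate 2 or KO replicate 3, 5 of the 9 were called, against 3508 of 13321 and 4078 of 13360 tested genes.

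**Figure D1:**
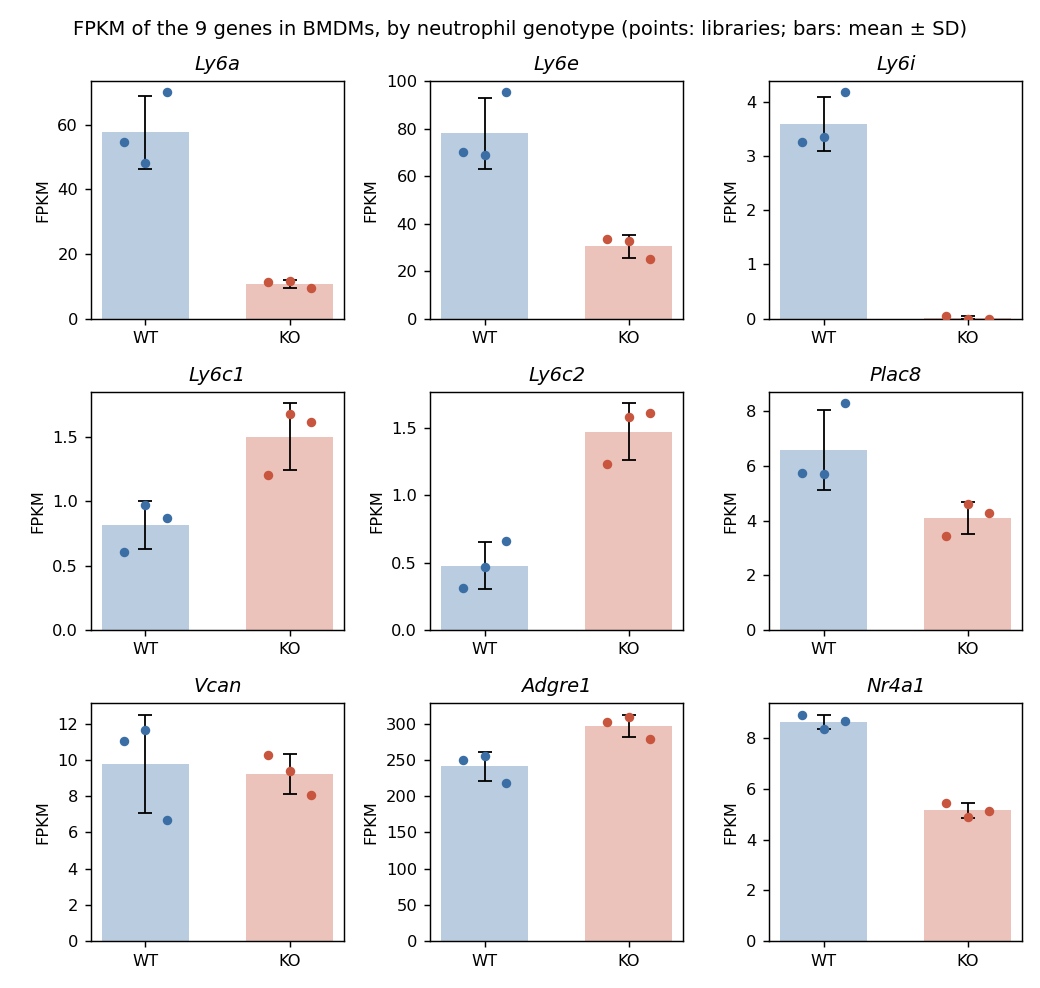
Level of the 9 genes in each library. The y axis of each panel is FPKM from 0, each point is 1 library (3 labelled WT, 3 labelled KO), and bars give the mean ± SD. *Ly6a*, *Ly6e*, *Ly6i*, *Plac8* and *Nr4a1* lie lower in every library labelled KO, *Ly6c1*, *Ly6c2* and *Adgre1* lie higher, and the points of *Vcan* overlap.

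The libraries held between 17600000 and 20300000 fragments, as implied by the smallest values, and Pearson correlations of log values were 0.967 to 0.985 within groups and 0.905 to 0.917 across them. The 8 defining macrophage genes that were looked up were detected in all 6 libraries, *Adgre1* among them, with summed levels of 5805 to 6909 FPKM under the WT label and 7230 to 7921 FPKM under the KO label. *Cd177* itself was read at 0.544, 0.309 and 0.521 FPKM where the label gave WT neutrophils and at 1.79, 1.84 and 2.28 FPKM where it gave KO neutrophils. It was thus higher under the KO label, but the BMDMs themselves carry the WT gene, so its level in these sorted cells does not check the genotype of the neutrophils. WT and KO neutrophils stand below for what the labels say. Of 22 neutrophil genes, *Cd177* among them, 14 could be tested, and with KO neutrophils 12 were higher and 1 was lower, the list having a summed level of 203 to 264 FPKM against 562 to 576 FPKM. *Ly6g*, the neutrophil marker of the same family on which the sort was gated, had 0.660, 0.547 and 0.403 FPKM with KO neutrophils and was at 0 in the table in each library with WT neutrophils. The part of neutrophil RNA in the results was not tested. In bulk samples, fewer cells of a type and less RNA per cell cannot be told apart.

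Except for *Ly6a*, *Ly6e*, *Ly6i* and *Adgre1*, the genes had an upstream sequence in the RefSeq table used (GRCm38.p6), 8 windows of 300 bases in all, and 3 stretches are shown here. The first pair is the best-matching part, by local alignment, of the 250 bases before a start site of *Ly6c1* and of *Ly6c2*. Transcripts of this pair of genes also share sequence, and their reads are hard to separate. The last 1 and 26 bases before the start sites fell outside the match, which thus does not measure the likeness of the whole windows. The stretches lie at chr15:75048839-75049056 (218 bases) and chr15:75111998-75112221 (224 bases), both on the minus strand, and are printed 5′ to 3′ with capitals for bases that did not match in the alignment.
Ly6c1: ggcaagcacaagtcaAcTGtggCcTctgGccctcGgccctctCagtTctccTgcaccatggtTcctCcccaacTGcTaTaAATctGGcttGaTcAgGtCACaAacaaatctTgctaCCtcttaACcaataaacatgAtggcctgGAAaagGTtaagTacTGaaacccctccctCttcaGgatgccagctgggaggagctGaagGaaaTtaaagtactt
Ly6c2: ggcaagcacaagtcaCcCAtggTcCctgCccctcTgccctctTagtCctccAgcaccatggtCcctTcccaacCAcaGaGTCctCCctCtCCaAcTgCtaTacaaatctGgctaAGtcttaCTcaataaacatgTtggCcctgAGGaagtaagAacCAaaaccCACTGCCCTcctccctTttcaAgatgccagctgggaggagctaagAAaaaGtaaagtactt
Within this best-matching part, the alignment had 170 identical bases in 231 columns (73.6%). The third is the stretch of 250 bases before an *Nr4a1* start site, chr15:101266596-101266845 on the plus strand, shown because 1 short word recurs in it. The capitals mark TGCGTCA, a heptamer that resembles a cyclic AMP response element.
Nr4a1: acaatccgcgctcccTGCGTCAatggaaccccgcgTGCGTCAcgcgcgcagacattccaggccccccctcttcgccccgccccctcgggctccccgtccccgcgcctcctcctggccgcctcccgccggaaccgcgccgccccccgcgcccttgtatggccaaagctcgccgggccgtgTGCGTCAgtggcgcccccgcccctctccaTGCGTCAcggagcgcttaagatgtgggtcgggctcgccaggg
The heptamer stood 4 times on the plus strand, with its first base at positions -235, -215, -71 and -42 from the start site. At least 1 copy on either strand was found in 2.1% of 32851 windows of 300 bases, and *Nr4a1* had the 1 window with 4 copies. The heptamer was picked after this window had been read, and none of the other members' windows held it. The cores of the interferon-stimulated response element, GAAANNGAAA, and of the gamma-activated sequence, TTCNNNGAA, stood on either strand in 3.4% and 8.3% of all windows and in none of the members' 8 windows. With shares this low and so few windows, some of them overlapping, finding none says little. *Ly6a*, *Ly6e* and *Ly6i* had no window to search.

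*Ly6a* encodes Sca-1, a surface protein of blood stem cells and activated lymphocytes that interferons induce. The gene lies on the minus strand of chromosome 15 from 74994877 to 74998031 (GRCm38, GENCODE M21). It was at 54.8, 48.2 and 70.0 FPKM with WT neutrophils and at 11.4, 11.6 and 9.45 FPKM with KO neutrophils. Every library labelled KO was far below every library labelled WT. The means were 57.7 ± 11.2 and 10.8 ± 1.2 FPKM (SD, n = 3 each), a level 5.33-fold lower with KO neutrophils. The log2 fold change was -2.35 (95% interval -2.72 to -1.98, SE 0.16, limma adjusted p = 7.40e-05).

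*Ly6e*, a broadly expressed and interferon-induced member of the family, lies on the plus strand from 74955051 to 74959905 of chromosome 15. Its levels were 70.0, 68.9 and 95.3 FPKM with WT neutrophils and 33.5, 32.8 and 25.0 FPKM with KO neutrophils. The groups stood apart, with means of 78.1 ± 14.9 and 30.4 ± 4.74 FPKM (SD, n = 3 each), and the log2 fold change was -1.34 (95% interval -1.74 to -0.94, SE 0.17, limma adjusted p = 0.00122). *Ly6a* lost more than *Ly6e* on the log2 scale, and the ratio of their FPKM, chosen after the values had been seen, was 0.782, 0.699 and 0.735 with WT neutrophils and 0.341, 0.352 and 0.379 with KO neutrophils. The ratios did not overlap, and the two-sided exact permutation test gave p = 0.1, the smallest value that 3 against 3 libraries allow.

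*Ly6i*, a close relative of *Ly6a* between it and *Ly6e* on the chromosome (74979534 to 74983430, minus strand), had 3.26, 3.34 and 4.17 FPKM with WT neutrophils. With KO neutrophils its only value above 0 was 0.0444 FPKM, in replicate 1. From the implied depth and the median transcript length, these values amount to about 55, 54 and 67 fragments against about 1, 0 and 0. The transcript was thus at the limit of detection in the libraries labelled KO and clearly read in the others. The log2 fold change of -2.99 (SE 0.14, limma adjusted p = 1.68e-05) is set in part by the added 0.5, and was -5.02 with 0.1 and -2.17 with 1 in its place.

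The Ly6C genes went the other way, from levels near the limit of these libraries. *Ly6c2* (chromosome 15, 75108158 to 75111970, minus strand) had 0.310, 0.463 and 0.660 FPKM with WT neutrophils and 1.23, 1.58 and 1.61 FPKM with KO neutrophils, about 4, 6 and 9 fragments against about 16, 23 and 22. All libraries labelled KO were above all libraries labelled WT, with means 3.09-fold apart. The log2 fold change was 1.02 (95% interval 0.60 to 1.45, SE 0.18, limma adjusted p = 0.00458).

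*Ly6c1* (75044018 to 75048830, minus strand), which endothelial cells and lymphocytes also express, had 0.609, 0.974 and 0.871 FPKM with WT neutrophils and 1.21, 1.68 and 1.62 FPKM with KO neutrophils. The groups did not overlap, and the log2 fold change was 0.61 (95% interval 0.21 to 1.01, SE 0.17, limma adjusted p = 0.0290). After median-of-ratios scaling it was 0.45 and no longer passed the test (limma adjusted p = 0.0889). The call was also lost without WT replicate 1, KO replicate 2 or KO replicate 3 (limma adjusted p = 0.0822, 0.103 and 0.0843). Of the 50-base windows in annotated *Ly6c2* transcripts, 30.8% also occurred in *Ly6c1*, and 14.3% of the *Ly6c1* windows occurred in *Ly6c2* and 11.1% in *Ly6a*. The split of reads between these genes is therefore uncertain, as how shared reads were assigned is not given in the sources used here. Summed, *Ly6c1* and *Ly6c2* had 0.918, 1.44 and 1.53 FPKM with WT neutrophils and 2.44, 3.26 and 3.23 FPKM with KO neutrophils. Each gene alone was higher in every library labelled KO, so the sums had to keep that direction and could not overlap. The two-sided exact permutation p of 0.1, the smallest possible, was fixed by this and adds no support. Nor does the sum cover reads shared with *Ly6a*. *Ly6e* shared no such window with the other Ly6 members, and *Ly6i* shared 2.7% of its windows with *Ly6a*.

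Neutrophils and lymphocytes can also carry Ly6C. Beside the neutrophil genes given above, both tested genes of 12 lymphocyte markers, *Cd79b* and *Cd4*, were higher with KO neutrophils, and the list summed to 2.61 to 3.4 FPKM with WT neutrophils and 9.64 to 11.2 FPKM with KO neutrophils. The defining T cell marker *Cd3e* reached at most 0.0321 FPKM in any library. The part of these cells in the *Ly6c1* and *Ly6c2* values was not tested.

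The 5 Ly6 genes lie within 157 kb of chromosome 15, inside a cluster of 885 kb with 25 protein-coding genes in GENCODE M21 (74714839 to 75599481). Only 7 of the 25 were expressed highly enough to be tested, the 5 members, *Them6* (log2 fold change -0.65, limma adjusted p = 0.00253) and *Lynx1* (1.05, limma adjusted p = 0.00519), and 9 were listed at 0 in all 6 libraries. Neighbouring genes of the cluster thus moved in opposite directions, and no scaling turned the direction of a Ly6 member. The transcribed pseudogene *I830127L07Rik*, next after *Ly6c2*, had 0.642, 0.460 and 0.734 FPKM with WT neutrophils. With KO neutrophils it had 3.75, 5.54 and 6.30 FPKM (log2 fold change 2.34, limma adjusted p = 0.000238). Whether it shares reads with the Ly6C genes was not tested. By FPKM, which allows genes to be compared, *Ly6a* and *Ly6e* made up nearly all of the Ly6 signal. The 5 genes summed to 129, 122 and 171 FPKM with WT neutrophils and to 47.4, 47.6 and 37.7 FPKM with KO neutrophils, of which *Ly6a* and *Ly6e* gave 96.5% and 93.1% on average.

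**Figure D2:**
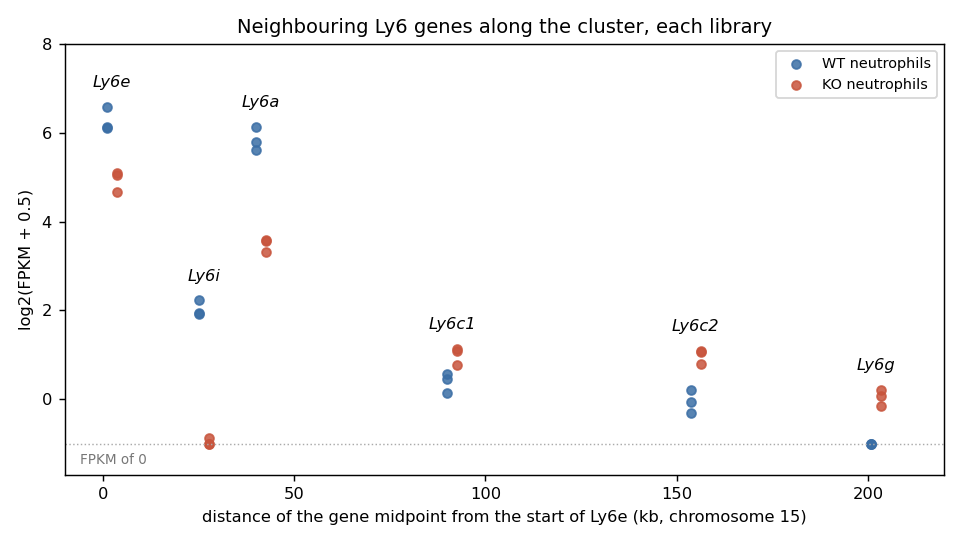
The Ly6 cluster of chromosome 15. The x axis is the distance in kb of each gene's midpoint from the start of *Ly6e*, with the groups set slightly apart sideways, the y axis is log2(FPKM + 0.5), each point is 1 library, and the dotted line marks an FPKM of 0. *Ly6e*, *Ly6i* and *Ly6a* lie lower with KO neutrophils, while *Ly6c1*, *Ly6c2* and the sorting marker *Ly6g* lie higher.

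Of 33 other genes of the family or its fold, inside the cluster and elsewhere, 31 were in the table, 13 were listed at 0 in all libraries and 4 could be tested. Of these, *Cd177* (log2 fold change 1.37) and *Lynx1* were higher and *Plaur*, the urokinase receptor, was lower. *Plaur* was at 95.7 ± 5.92 FPKM with WT and 28.7 ± 1.55 FPKM with KO neutrophils (SD, n = 3 each), and its log2 fold change was -1.72 (SE 0.08, limma adjusted p = 2.04e-05). A list of 22 interferon-stimulated genes fell as a whole, with 22 of 22 called lower and a median log2 fold change of -3.60, led by *Rsad2* (-5.75) and *Ifit2* (-5.55). The falls of *Ly6a*, *Ly6e* and *Ly6i* stood beside this, and their dependence on interferon was not tested.

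*Plac8*, a small cysteine-rich protein of Ly6C-high monocytes and granulocytes, lies on chromosome 5 (100553725 to 100572245, minus strand). It had 5.74, 5.72 and 8.28 FPKM with WT neutrophils and 3.43, 4.59 and 4.26 FPKM with KO neutrophils. The groups stood apart, though by little. The log2 fold change was -0.61 (95% interval -1.03 to -0.20, SE 0.17, limma adjusted p = 0.0308), so *Plac8* and the Ly6C genes, which are used to mark the same monocytes, moved in opposite directions. The *Plac8* call was lost without KO replicate 1, 2 or 3 (limma adjusted p = 0.102, 0.0518 and 0.0652).

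*Vcan*, which encodes the matrix proteoglycan versican and is high in human and mouse classical monocytes, lies on chromosome 13 (89655312 to 89742509, minus strand). Its values were 11, 11.7 and 6.67 FPKM with WT neutrophils and 10.3, 9.36 and 8.08 FPKM with KO neutrophils. The lowest and the highest library were both labelled WT, and the group labelled KO lay between them. The log2 fold change was -0.046, with a 95% interval from -0.55 to 0.46 (limma adjusted p = 0.885), which leaves room for a change in either direction. Without WT replicate 3 it was -0.29 (limma adjusted p = 0.0886). Of 17 genes of versican relatives, hyaluronan synthesis and versican turnover, 9 could be tested, 2 were higher and 5 lower, with a median of -0.41. *Has2*, a hyaluronan synthase, fell from 17.3 to 2.97 FPKM (log2 fold change -2.36) and *Tlr2*, a receptor for which versican is a ligand, changed by -1.99. The proteases *Adamts5* (1.26) and *Adamts1* (0.92), both able to cleave versican, were higher. *Adamts4*, another such protease, was lower (-0.91, limma adjusted p = 0.0108), so these proteases did not move together. The other large proteoglycans *Acan*, *Ncan* and *Bcan* stayed at or under 0.364 FPKM in every library.

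*Adgre1* encodes F4/80, the common surface marker of mouse macrophages, and lies on chromosome 17 (57358691 to 57483527, plus strand). It was the most abundant of the 9 genes, with 249.8, 256 and 218 FPKM with WT neutrophils and 303, 309 and 279 FPKM with KO neutrophils. The groups did not overlap, and the means of 241 ± 20.5 and 297 ± 15.6 FPKM (SD, n = 3 each) differed by a log2 fold change of 0.30 (95% interval 0.08 to 0.53, SE 0.10, limma adjusted p = 0.0449). This was close to the shift of 0.19 in all genes, and after median-of-ratios scaling it was 0.073 (limma adjusted p = 0.579). Leaving out any 1 library other than WT replicate 3 also ended the call (limma adjusted p = 0.0599 to 0.154). Of its relatives, *Adgre5* rose from 5.60 to 13.8 FPKM (log2 fold change 1.24, limma adjusted p = 0.000656). *Adgre4*, a marker of Ly6C-low monocytes, had 0.0151, 0.0158 and 0 FPKM with WT neutrophils and 1.61, 1.24 and 1.65 FPKM with KO neutrophils (log2 fold change 1.96, limma adjusted p = 0.000139). *Csf1r*, the receptor of the growth factor in the medium, did not pass the test (0.11, limma adjusted p = 0.431).

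*Nr4a1* lies on chromosome 15 (101254269 to 101274795, plus strand), far from the Ly6 cluster. It had 8.91, 8.36 and 8.69 FPKM with WT neutrophils and 5.46, 4.88 and 5.12 FPKM with KO neutrophils. Replicates lay close together and the groups were well apart. The means of 8.65 ± 0.278 and 5.15 ± 0.293 FPKM (SD, n = 3 each) gave a log2 fold change of -0.70 (95% interval -0.90 to -0.49, SE 0.09, limma adjusted p = 0.00114). Its paralog *Nr4a2* also fell, from 1.59, 1.78 and 2.32 FPKM to 0.895, 0.598 and 0.780 FPKM (log2 fold change -0.93, limma adjusted p = 0.00514). *Nr4a3* was under the filter, at 0.528, 0.449 and 0.368 FPKM against 0.10, 0.173 and 0.190 FPKM. Of 16 immediate early and *Nr4a* genes, 14 could be tested, 5 were lower and 9 did not pass, with a median of -0.22. *Ier3* changed most (-1.80, limma adjusted p = 0.000114). *Egr1*, an immediate early transcription factor that was listed with the monocyte transcription factors, rose instead (1.71, limma adjusted p = 0.000212).

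**Figure D3:**
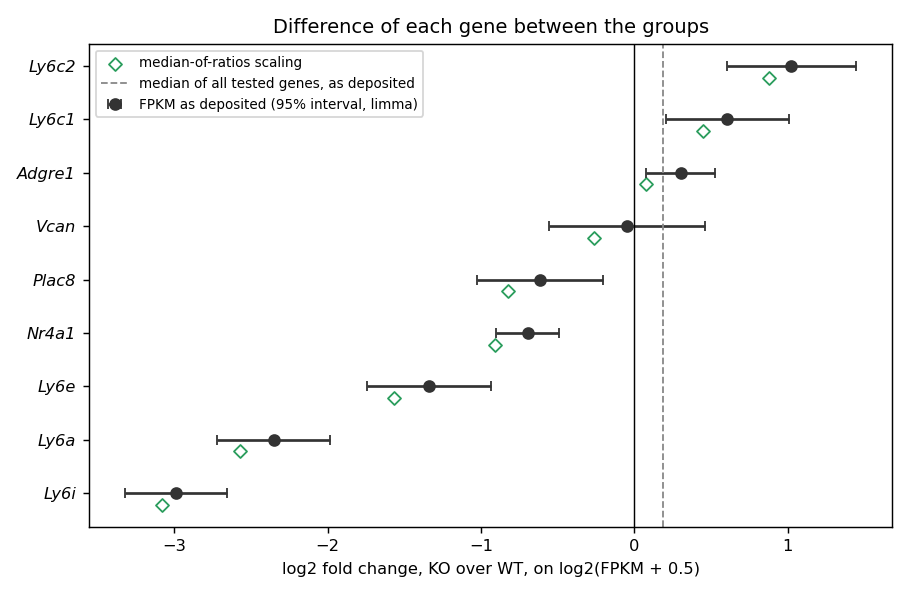
Log2 fold change of each gene, KO over WT, on the log2(FPKM + 0.5) scale. Circles are the fits to the deposited FPKM with 95% limma intervals, diamonds the values after median-of-ratios scaling, and the dashed line is the median of all tested genes (0.19). The intervals of *Ly6i*, *Ly6a*, *Ly6e*, *Nr4a1* and *Plac8* lie below 0, that of *Vcan* spans 0, and the diamond of *Adgre1* lies near 0.

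The markers of the 2 monocyte populations did not move as blocks. Of 19 genes of Ly6C-high monocytes, 18 could be tested, and 5 were higher, 9 lower and 4 not called (median -0.21). *Ccr2*, the chemokine receptor that brings these monocytes out of the marrow, rose like the Ly6C genes, from 0.306, 0.476 and 0.808 FPKM to 2.66, 2.93 and 2.62 FPKM (log2 fold change 1.68, limma adjusted p = 0.000773). *F13a1*, a coagulation factor subunit, rose from 6.39 to 36.7 FPKM (2.44). *Cd14*, a coreceptor for lipopolysaccharide, fell with *Plac8* and much further, from 1010 ± 150.1 to 99.4 ± 8.39 FPKM (SD, n = 3 each, log2 fold change -3.33), and *Ms4a4c* fell from 4.85 to 0.485 FPKM (-2.44).

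Of 20 genes of Ly6C-low monocytes, the population that depends on *Nr4a1*, 17 could be tested, and 8 were higher, 7 lower and 2 not called (median 0.50). After median-of-ratios scaling 5 were higher and 7 lower. The lectin receptors *Clec4a3* (2.59) and *Clec4a1* (2.27) rose most, and *Cebpb* (-1.82) and *Bcl2a1d* (-1.81) fell most. *Spn*, which encodes CD43, was higher (0.59, limma adjusted p = 0.0134), and *Cx3cr1*, the fractalkine receptor, did not pass the test (0.33, limma adjusted p = 0.127). Among 13 tested transcription factors of the lineage, *Maf* (1.89) and *Egr1* rose, *Id2* fell (-1.33) and 10 were not called, and after median-of-ratios scaling 2 were higher and 5 lower.

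Of 19 genes of mature macrophages, 7 were higher, 3 lower and 9 not called, with a median of 0.26. The mannose receptor *Mrc1* rose from 28.0 to 221 FPKM (log2 fold change 2.96) and the haemoglobin scavenger receptor *Cd163* changed by 2.46, each far more than *Adgre1*. The scavenger receptor *Marco* (-2.48) and the Fc receptor *Fcgr1* (-1.83) fell most.

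**Figure D4:**
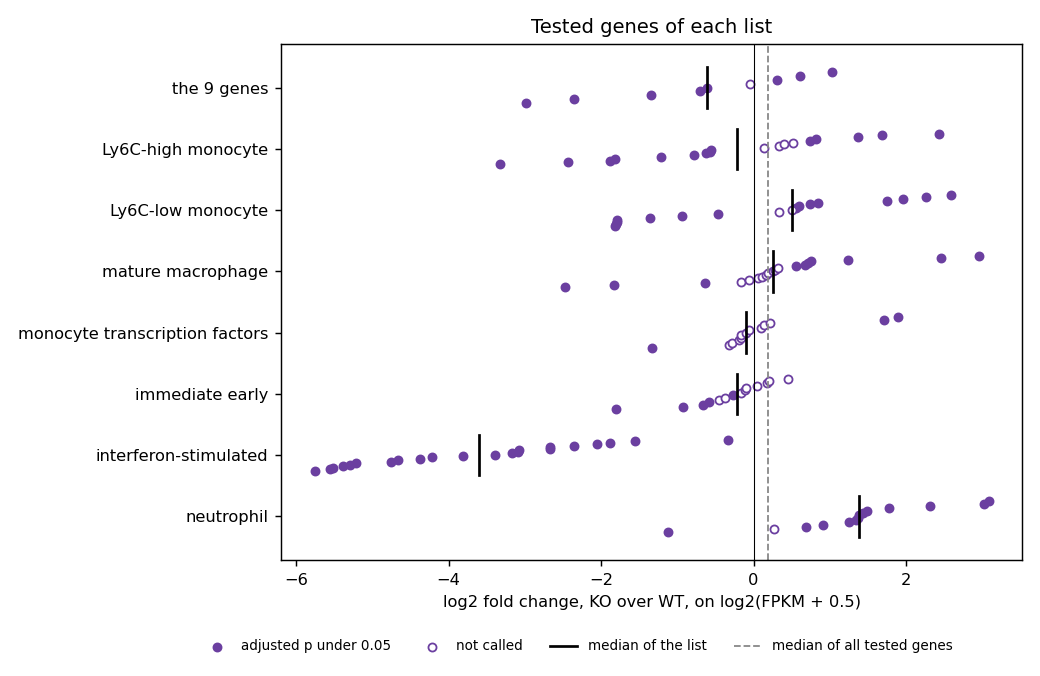
Log2 fold change, KO over WT, of the tested genes of each list on the log2(FPKM + 0.5) scale. Each point is 1 gene, filled where the limma adjusted p was under 0.05, black bars are list medians, the dashed line is the median of all tested genes (0.19), and genes are spread vertically only to separate them. Ly6C-high and Ly6C-low monocyte genes lie on both sides of 0, interferon-stimulated genes all lie below it.

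Within each group, the order of the 9 levels differed in places. With WT neutrophils the order of mean FPKM was *Adgre1*, *Ly6e*, *Ly6a*, *Vcan*, *Nr4a1*, *Plac8*, *Ly6i*, *Ly6c1* and *Ly6c2*. The values of *Ly6e* and *Ly6a*, of *Vcan* and *Nr4a1*, of *Vcan* and *Plac8*, and of *Ly6c1* and *Ly6c2* overlapped between libraries. Within each of these libraries, however, *Ly6e* was above *Ly6a* and *Ly6c1* above *Ly6c2*. *Vcan* was above *Nr4a1* and *Plac8* in replicates 1 and 2 and below both in replicate 3, so its order with them was not steady. With KO neutrophils *Ly6i* was the lowest of the 9 and the others kept their order of means. *Ly6a* overlapped *Vcan* there but was above it within each library, and *Ly6c1* and *Ly6c2* overlapped without a steady order.

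The genes most like each member were sought among 6835 genes of at least 5 FPKM, as the smallest root mean square difference of centred log2(FPKM + 0.5) profiles over the 6 libraries. *Ly6a* was most like *Bcl2a1a* (0.121), *Marco* (0.122) and *Trex1* (0.135), all of which differed strongly between the groups. *Ly6e* was closest to *Psme2b* (0.0811). *Plac8* followed *Gzme* (0.0681), *Vcan* followed *Stk35* (0.0489), *Adgre1* followed *Fam120a* (0.0178) and *Nr4a1* followed *Pfkl* (0.0402). Genes with a small difference between groups have flatter profiles, and their distances are smaller for that reason. With 0.1 or 1 added in place of 0.5, a setting tried after the data had been seen, these 6 genes shared 2 or 3 of their 3 nearest genes with those found at 0.5. The low genes *Ly6c1*, *Ly6c2* and *Ly6i* shared at most 1, so their nearest genes follow from the added value and are not named.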

How the data were processed

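RNA-seq values of 6 BMDM libraries were used, 3 per group, grouped by the labels. The authors deposited FPKM per gene. The submitters' processing notes list fastp 0.17.1, HISAT2 2.1.0, DESeq2 1.18.1 and R 3.4.3, and the build, annotation, strandedness and treatment of shared reads are not given in the sources used here. RNA reagent, library kit and sequencer differ between the labels and the paper's methods. GENCODE M21 (GRCm38) held 55154 (99.7%) of the 55335 identifiers and gave symbols and positions. Depth was implied from the smallest values. Only 37.3% to 40.5% of low values lay within 0.1 of whole fragments, so no count test was run.

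log2(FPKM + 0.5) was tested with limma 3.58.1 in R 4.3.3 (trend, two-sided, no covariates) where the mean FPKM was 0.5 or more, and genes were called at a Benjamini-Hochberg adjusted p under 0.05. The test was also run on simulated data, in which genes were drawn independently and SDs were shuffled between genes. The real data had a general shift and libraries that deviated alike, so the simulation does not vouch for the test here. Sequences came from RefSeq (GRCm38.p6) and were aligned with Biopython 1.88.

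The members and gene lists were chosen with earlier results of these data known, and the lists were drawn up from general knowledge. All 9 members are named. *Them6* and the pseudogene *I830127L07Rik* are named as other tested genes of the Ly6 cluster, and *Adamts4* as another tested protease that cleaves versican. From each list, up to 2 called genes with the largest rises and 2 with the largest falls are named, with paralogs of members, *Ccr2*, *Cx3cr1*, *Spn*, *Csf1r*, *Cd177* and defining markers of other cells. Some genes that this rule names are not reported here. Alternatives were other pseudocounts, filters, scalings, a stricter threshold, a robust variance, a replicate block and leaving out libraries. Leaving out replicate 3 of both groups and other pseudocounts for the nearest profiles were added after the data had been seen.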

Additional observations from a re-analysis of the deposited data

How the results depend on the processing

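*Ly6a*, *Ly6e*, *Ly6i* and *Nr4a1* kept their direction and call in all 18 alternatives, and *Ly6c2* in the 17 that gave it a value (it is under a filter of 1 FPKM). The count of 8 members called was 5 without a filter, 5 at an adjusted p under 0.01 and 5 to 8 with 1 library left out, the lowest without KO replicate 2 or 3. All genes called numbered 5027 of 13367 in the main fit and 4505 of 28101 without a filter. They numbered 2929 at 0.01 and 3479 to 5966 with 1 library left out.

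*Adgre1* lost its call without a filter (0.30), at 0.01 (0.30), with a robust variance (0.30), rescaled to TPM (0.32), by upper quartile (0.21) and by median-of-ratios (0.073), and ranged from 0.23 to 0.35 with 1 library left out. *Ly6c1* lost its call without a filter (0.61), at 0.01 (0.61), by median-of-ratios (0.45), by quantile normalization (0.36) and without replicate 3 of both groups (0.59), and ranged from 0.49 to 0.72 with 1 library left out. *Plac8* lost it without a filter (-0.61) and at 0.01 (-0.61), and ranged from -0.70 to -0.45. *Vcan*, not called in any alternative, changed sign without WT replicate 1 (0.055), WT replicate 2 (0.094) or KO replicate 3 (0.042), and its lowest value was -0.29. The causes were not tested.

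Replicate numbers were tried as a block. Deviations of same-numbered libraries correlated at 0.12, 0.04 and 0.26. WT replicate 1 with KO replicate 2 and WT replicate 2 with KO replicate 1 gave 0.16 and 0.12. Replicate 3 of either group correlated at -0.23 to -0.13 with replicates 1 and 2 of the other. The replicate 3 libraries thus deviated alike, and what they share beyond the number was not tested. With the replicate block 8 members and 5934 genes were called. Of the called genes 72.0% were higher as deposited and 47.7% after median-of-ratios scaling, with 2057 higher and 2259 lower. The *Ly6c1*, *Ly6c2* and *Ly6i* values rest on few fragments, and FPKM carry no counts from which an interval for them could be taken.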

Other observations

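*Procr*, the endothelial protein C receptor that also marks blood stem cells, fell from 152 to 8.68 FPKM with KO neutrophils (log2 fold change -4.07, limma adjusted p = 3.07e-06). It was looked up as a progenitor gene beside *Ly6a*, and was 1 of 2 tested among 9 such genes. *Kit*, *Flt3* and *Cd34* stayed at or under 0.242 FPKM in every library. Of 12 endothelial and stromal genes 8 were tested and 3 were lower, *Dcn* (-1.04), *Kdr* (-1.03) and *Pdgfrb* (-0.68), and the list summed to 362 to 536 FPKM with WT and 464 to 526 FPKM with KO neutrophils. Nearly all of this was collagen, *Col1a1* at 228 to 361 FPKM and *Col1a2* at 113 to 165 FPKM over the 6 libraries, neither of which passed the test (limma adjusted p = 0.675 and 0.0578). *Pdgfrb* was read at 9.88 to 22.5 FPKM, and the endothelial markers *Cdh5* and *Cldn5* stayed at or under 0.711 and 0.0348 FPKM. Of 8 dendritic cell and 9 spinal cord genes 1 each could be tested, *Tcf4* (0.82, limma adjusted p = 0.0509) and *Mbp* (0.25, limma adjusted p = 0.186). Among the neutrophil genes, *Ltf* (3.09) and *Ngp* (3.02) rose most and *Mmp8* fell (-1.12).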
